A study of Mus musculus with 48 samples.

Results

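A set of 8 genes was followed in mouse liver across feeding, fasting, a high-fat diet and the loss of hepatocyte p110α. They are 7 genes grouped here as targets of the tumour suppressor p53 (Cdkn1a, Mdm2, Bbc3, Perp, Ccng1, Gadd45a and Gadd45b) and Ccnd1, which encodes cyclin D1. Gadd45b was placed in this group with its relative Gadd45a, and a response to p53 was not tested for any of them. They were taken by gene name from the array annotation, which gave 12 of 56605 probes, and 10 of these 12 probes passed the filter on dim probes. All 8 genes kept at least 1 probe, as did 20486 of the 37074 genes on the array. The level of a gene is the log2 normalized signal of its brightest probe, so levels are compared between groups for 1 gene and never between genes.

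Gene expression was profiled on 48 arrays, each with liver RNA of male mice, in 8 groups of 6. All mice carried floxed alleles of p110α, the catalytic subunit of PI3Kα that relays the insulin signal in hepatocytes. The p110α hep-/- mice also carried albumin-Cre, whose promoter is active in hepatocytes, and their Cre-negative littermates, p110α hep+/+, served as controls. From 12 weeks of age the mice received a control diet (CTRL, D12450J) or a high-fat diet (HFD, D12492, 60% of calories from fat) for 12 weeks. They were then fed ad libitum or fasted for 24 h and killed at Zeitgeber Time 16, in the dark phase. In whole liver, a change in the share of a cell type and a change of RNA per cell cannot be told apart, and p-values measure the spread between the 6 samples of a group.

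p53 is a transcription factor that is stabilised by DNA damage and other stress and switches on genes that stop the cell cycle, start apoptosis or limit p53 itself. p21, the product of Cdkn1a, inhibits cyclin-dependent kinases, whereas cyclin D1 activates CDK4 and CDK6 and takes cells into the cycle. Several of these genes also answer to other regulators. In liver, Cdkn1a can be driven by FOXO factors, which insulin keeps out of the nucleus through PI3K and AKT, and the GADD45 genes respond to many kinds of stress.

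On each array, 50.1% to 57.4% of probes were well above background and no spot was saturated. The 5 hepatocyte markers checked (Alb among them) were well above background on all 48 arrays. Of the 48 arrays, 46 lay nearest to the mean of their own group. LKO_HFD_FED replicate 3 and LWT_CTRL_FED replicate 2, where LKO stands for hep-/- and LWT for hep+/+, lay nearest to fed hep-/- mice on CTRL diet. Leaving both out lost 1 of the 46 calls described below, the higher Ccnd1 of fed hep-/- mice on CTRL diet. The Pik3ca probe, which detects the transcript of the targeted gene, was not lower in hep-/- mice (log2 differences of 0.39, 0.58, 0.08 and 0.25), so the deletion could not be checked with it and the genotype labels were used as given. Summed signals of 5 cholangiocyte markers (Krt19, Krt7, Epcam, Sox9 and Spp1) were 559 to 1132 in hep-/- mice and 1451 to 5397 in hep+/+ mice. A sum weighs bright markers most, and the median log2 difference over the 5 markers was smaller, between -0.51 and -0.39 in the genotype comparisons. Epcam and Krt7 were well above background on only 18 and 28 of 48 arrays, so their differences rest partly on signals near background. These marker sums stand beside every genotype difference below, and their part in those differences was not tested. In fasted mice on HFD, 36.9% of all genes differed between genotypes. There, 5 of 6 sinusoidal endothelial markers were also higher and 3 of 5 neutrophil markers lower in hep-/- mice. Of 7 Kupffer cell and macrophage markers, 1 was higher and 1 lower. In fed mice on each diet, 1 endothelial marker was higher and 1 lower in hep-/- mice. In fasted mice on CTRL diet, 24.9% of all genes differed. Among the markers, 2 of 6 endothelial (Clec4g and Kdr) and 1 of 7 Kupffer cell markers (Vsig4) were higher in hep-/- mice. Summed endothelial signals there were 18518 to 20829 in hep-/- and 13898 to 18496 in hep+/+ mice. The part of these markers in the genotype differences was not tested. On fasting, 3 of the 5 cholangiocyte markers fell in each genotype on CTRL diet and 1 in each on HFD. In hep+/+ mice on HFD, 3 of 6 endothelial markers (Clec4g, Kdr and Oit3) fell too. Their part in the fasting differences was not tested either.

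Promoter windows of 300 bases were matched in RefSeq (GRCm38.p6) for 6 of the 8 members. These 3 stretches are shown because each holds letters known for binding p53 or FOXO. The first lies upstream of 1 of the 2 Cdkn1a start sites in the table (chr17:29090891-29090978, plus strand), from base -88 to base -1. Its capitals, from -51 to -32, mark a pair of CATG cores with 3 flanking bases on each side. The second lies upstream of Mdm2 (chr10:117710865-117710951, minus strand) and the third upstream of a start site of Bbc3 (chr7:16310054-16310140, plus strand). Their capitals mark GTAAACA, the core that FOXO factors recognise, at -153 to -147 in Mdm2 and, as the reverse complement, at -167 to -161 in Bbc3.
Cdkn1a: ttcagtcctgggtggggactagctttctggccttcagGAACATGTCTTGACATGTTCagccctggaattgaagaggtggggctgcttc
Mdm2: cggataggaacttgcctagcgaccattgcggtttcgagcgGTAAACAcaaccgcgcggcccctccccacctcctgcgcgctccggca
Bbc3: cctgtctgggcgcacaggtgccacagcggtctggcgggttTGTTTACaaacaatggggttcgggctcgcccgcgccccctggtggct

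The p53 pair, searched as CATGNNNNNNCATG, which is its own reverse complement, was in 0.712% of 32851 promoter windows of the same length, and among the members only in this window and not in that of the other Cdkn1a start site. GTAAACA, searched on both strands, was in 3.65% of windows. CACGTG, the E-box, was in 7.15% of windows and in windows of Bbc3 and Gadd45b, and TGACGTCA, the cyclic AMP response element, was in 1.79% and in no member's window. The motifs did not overlap. They were chosen after the windows had been seen and describe letters, not binding.

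The members were compared between fasted and fed mice, between HFD and CTRL diet, and between genotypes, with 4 comparisons of each kind, and in 6 interactions, which test whether 1 effect differs between 2 settings. A gene was called changed at an adjusted p of at most 0.05, from limma with Benjamini-Hochberg adjustment over all 30793 probes. Fasting gave 19 calls in 32 gene and comparison pairs (59.4%), against 31.3% of all pairs of genes and comparisons. Genotype gave 14 calls in 32 (43.8%, against 29.1%), HFD 9 in 32 (28.1%, against 15.8%), and the interactions 4 in 48 (8.33%, against 4.32%). With a fold change over 1.5 as well, 13 fasting, 7 genotype and 2 HFD calls remained, and these shares of all genes were 5.79%, 4.94% and 2.69%. The comparisons share groups, so the calls do not count as separate evidence. The members were also chosen with earlier results of these data known, so their shares describe them and do not test enrichment. All 46 calls had the same direction within each of the 2 batches in which the array slides were washed, with 3 arrays per group in each, and 23 and 24 of them passed the threshold within batch 1 and batch 2. Log2 fold changes are fitted with array weights and can differ slightly from the difference of the plain means.

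**Figure D1:**
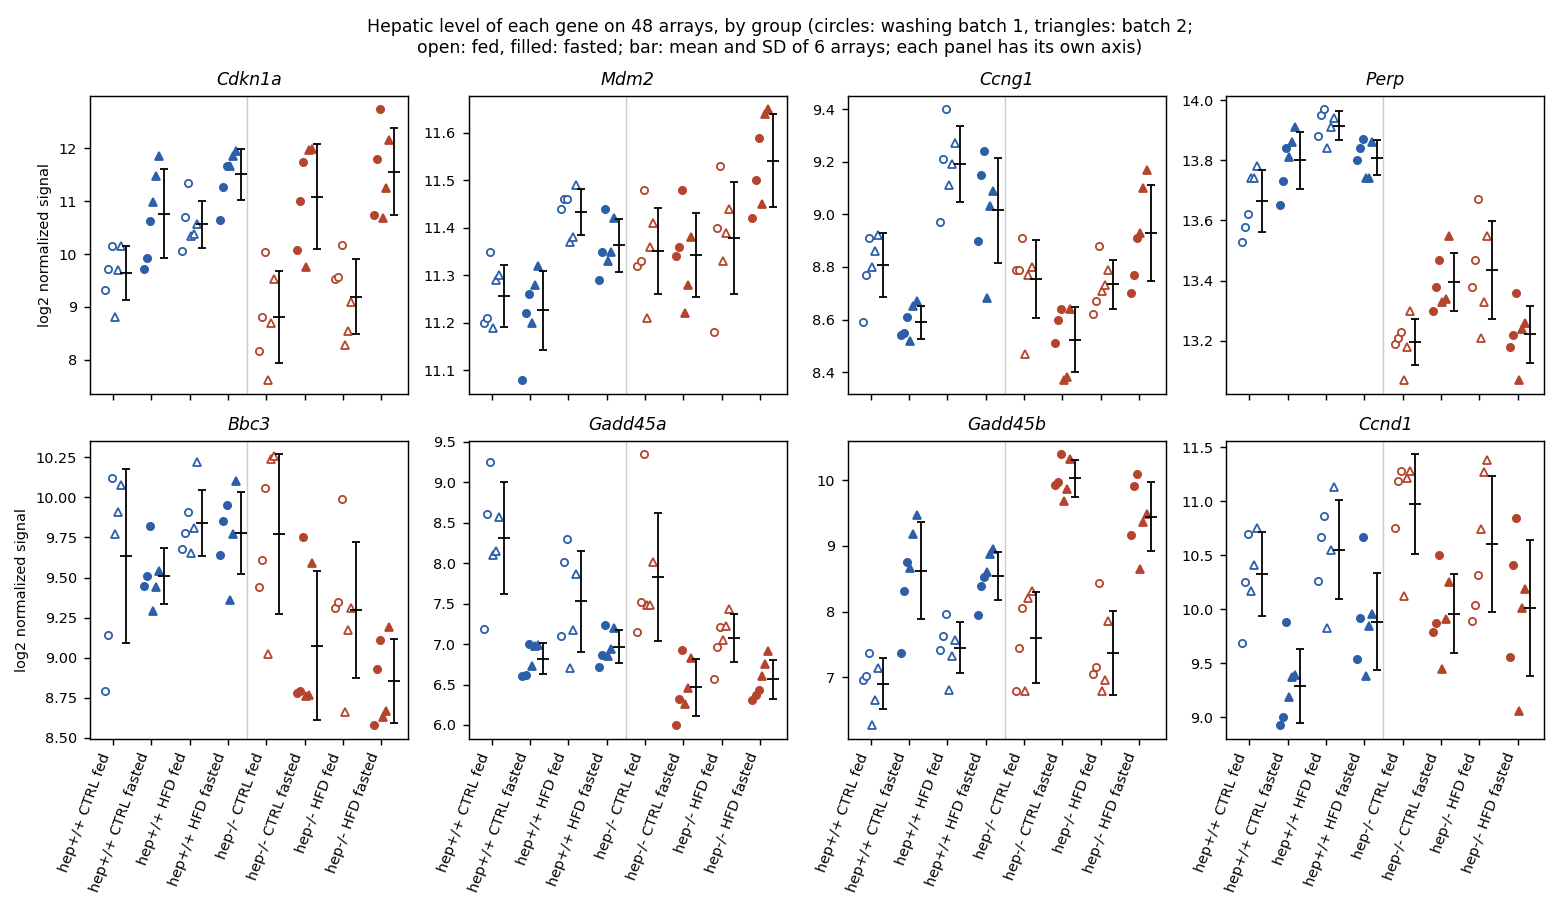
Log2 normalized signal of each gene on the 48 arrays by group, with open symbols for fed and filled for fasted mice, blue for p110α hep+/+ and red for hep-/-, circles and triangles for the 2 washing batches, and bars for the mean and SD of 6 arrays; each panel has its own axis. Gadd45b sits highest in fasted hep-/- mice, and in the Perp panel all hep-/- arrays lie below all hep+/+ arrays of the same diet and state.

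Cdkn1a encodes p21, the inhibitor of cyclin-dependent kinases. It rose on fasting in 3 of the 4 settings, and in fed mice on HFD it was lower in hep-/- than in hep+/+ mice. On CTRL diet, fed hep+/+ mice had levels from 8.82 to 10.16 (median 9.71) and fasted hep+/+ mice from 9.71 to 11.85 (median 10.8). Fed hep-/- mice ranged from 7.62 to 10.03 (median 8.76), and their fasted counterparts from 9.75 to 11.99 (median 11.38). The fed and fasted groups overlapped in both genotypes on this diet. On HFD, fed hep-/- mice reached 8.28 to 10.17 (median 9.3) and fasted hep-/- mice 10.69 to 12.74 (median 11.52), with no overlap, which held for 8.44% of genes in that comparison. Fed hep+/+ mice on HFD had 10.05 to 11.34 (median 10.47) and fasted hep+/+ mice 10.65 to 11.94 (median 11.66), and these overlapped.

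The fold on fasting was 5.45 in hep-/- mice on CTRL diet (log2 2.45, SE 0.39, adjusted p = 2.24e-06) and 5.32 in hep-/- mice on HFD (log2 2.41, SE 0.42, adjusted p = 2.61e-05). Among hep+/+ mice it was 2.31 on CTRL diet (log2 1.21, SE 0.38, adjusted p = 0.0122), with log2 differences of 0.46 and 2.07 within the washing batches. That call was lost without LWT_CTRL_FASTED replicate 6 (log2 0.98, adjusted p = 0.052) and without LWT_CTRL_FED replicate 3 (log2 0.98, adjusted p = 0.0637). In hep+/+ mice on HFD the log2 difference of 0.92 (SE 0.37) missed the threshold (adjusted p = 0.0569), and it passed without any of 3 arrays (adjusted p from 0.0247 to 0.0455). The difference between genotypes in the fasting response was not called for this probe. It was 1.24 on the log2 scale on CTRL diet (95% interval 0.15 to 2.33, adjusted p = 0.201) and 1.5 on HFD (0.37 to 2.62, adjusted p = 0.135).

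In fed mice, HFD raised Cdkn1a 2.09-fold in hep+/+ mice (log2 1.06, SE 0.37, adjusted p = 0.0329). Among hep-/- mice the log2 difference was 0.25 (95% interval -0.57 to 1.07, adjusted p = 0.783), and the difference between these diet effects, -0.81 (-1.92 to 0.3), was not called (adjusted p = 0.47). The hep+/+ diet call was lost without LWT_CTRL_FED replicate 3 (log2 0.84, adjusted p = 0.128) and without LWT_HFD_FED replicate 4 (log2 0.85, adjusted p = 0.117), and with the replicate number as a block (log2 1.04, adjusted p = 0.0587). It was also lost with no filter on dim probes (adjusted p = 0.0901), no correction of the washing batch (adjusted p = 0.0608) or no array weights (log2 0.92, adjusted p = 0.113), and within each washing batch (log2 1.14 and 0.98, adjusted p = 0.142 and 0.218). Fed hep-/- mice on HFD had 2.87-fold less Cdkn1a than fed hep+/+ mice on HFD (log2 -1.52, SE 0.39, adjusted p = 0.00229), with ranges that overlapped at 1 end. In fasted mice the genotype differences were 0.53 on CTRL diet (adjusted p = 0.328) and -0.02 on HFD (adjusted p = 0.972). In the order of group means, the 4 fasted groups stood above the 4 fed ones, from 11.56 ± 0.81 (SD, n = 6) in fasted hep-/- mice on HFD to 8.81 ± 0.87 in fed hep-/- mice on CTRL diet. Of the 7 neighbouring pairs in that order, only the fed hep+/+ groups, with 10.56 ± 0.44 on HFD and 9.65 ± 0.51 on CTRL diet, differed by more than both SDs.

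The brightest Cdkn1a probe lies at chr17:29237377-29237436 on the plus strand of mm9, the build of the array annotation. The second probe, at chr17:29235299-29235358, was dimmer and well above background on 33 of 48 arrays. Among fed mice it was so on 1 of 6 arrays of hep+/+ and 2 of 6 of hep-/- mice on CTRL diet, and on 6 of 6 and 2 of 6 on HFD, and in the fasted groups on 5 or 6 of 6. It passed the filter on dim probes only through groups where its signal was higher. The sign was the same in all 7 comparisons that either probe called, with both called in 5 and only the second in 2. All 5 include a fed group in which this probe was mostly near background, so the shared sign is no separate support. The sizes of this probe's differences that involve the fed groups on CTRL diet or fed hep-/- mice on HFD rest mostly on arrays near background and are not given. The genotype difference in fasted mice on CTRL diet, called with this probe only, was 0.53 (adjusted p = 0.0377). The other call of this probe only was the difference between genotypes in the fasting response on HFD. It includes fed hep-/- mice on HFD, and the brighter probe did not call it. The remaining probe was well above background on 0 of 48 arrays.

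Ccng1, which encodes cyclin G1, a p53 target that recruits phosphatase PP2A to MDM2, changed by less than Cdkn1a but with small spreads. HFD raised it in fed and fasted hep+/+ mice and in fasted hep-/- mice, and not in fed hep-/- mice. Fed hep+/+ mice had 8.59 to 8.92 (median 8.83) on CTRL diet and 8.97 to 9.4 (median 9.2) on HFD, and fasted hep+/+ mice had 8.52 to 8.67 (median 8.58) and 8.68 to 9.24 (median 9.06). Fasted hep-/- mice had 8.37 to 8.64 (median 8.55) on CTRL diet and 8.7 to 9.17 (median 8.92) on HFD. The diets did not overlap in these 3 settings, a separation seen for 9.51%, 5.86% and 4.1% of genes. Fed hep-/- mice had 8.47 to 8.91 (median 8.79) on CTRL diet and 8.62 to 8.88 (median 8.72) on HFD, which overlapped over most of their range.

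The HFD differences of Ccng1 were 0.38 (SE 0.07, 1.3-fold, adjusted p = 0.000184) in fed and 0.4 (SE 0.07, 1.32-fold, adjusted p = 0.000207) in fasted hep+/+ mice, and 0.4 (SE 0.08, adjusted p = 0.000552) in fasted hep-/- mice. The last was 0.2 (adjusted p = 0.449) and 0.6 (adjusted p = 0.00476) within the washing batches. In fed hep-/- mice the difference was -0.05 (95% interval -0.21 to 0.12, adjusted p = 0.795). Ccng1 was 1.39-fold lower in fed hep-/- than in fed hep+/+ mice on HFD (log2 -0.48, SE 0.08, adjusted p = 5.13e-06), again without overlap (13% of genes). The other 3 genotype differences, -0.06, -0.05 and -0.05, were not called (adjusted p = 0.671, 0.667 and 0.672). Of the 4 interactions called among the members, 3 belong to this gene. The diet effect in fed mice differed between genotypes by -0.42 (SE 0.11, adjusted p = 0.026), a test that 3.03% of genes passed. The fasting effect on HFD differed between genotypes by 0.43 (SE 0.11, adjusted p = 0.0212), as for 3.49% of genes. In hep-/- mice the fasting effect differed between diets by 0.45 (SE 0.11, adjusted p = 0.00877), as for 8% of genes.

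Fasting lowered Ccng1 by about the same amount in hep+/+ mice on CTRL diet (-0.24, adjusted p = 0.0118), hep-/- mice on CTRL diet (-0.24, adjusted p = 0.0131) and hep+/+ mice on HFD (-0.22, adjusted p = 0.0209). For hep-/- mice on HFD the value was 0.21 (adjusted p = 0.0553). The first of these calls missed the threshold with processed signals (-0.21, adjusted p = 0.06) and with normexp background correction (-0.18, adjusted p = 0.0543). The second was lost without LKO_CTRL_FASTED replicate 3 (-0.2, adjusted p = 0.0506). The third was lost without LWT_HFD_FASTED replicate 2 or 3 or LWT_HFD_FED replicate 2, with values from -0.19 to -0.13 and adjusted p from 0.0695 to 0.176, and with no filter (-0.19, adjusted p = 0.106), no array weights (-0.18, adjusted p = 0.118) or only the groups compared (-0.22, adjusted p = 0.101). The interaction of genotype and diet in fed mice was lost without LKO_CTRL_FED replicate 3 or LKO_HFD_FED replicate 1 or 2 (adjusted p from 0.0502 to 0.0565), with no filter on dim probes (-0.41, adjusted p = 0.0903), no array weights (-0.41, adjusted p = 0.0691) or no correction of the washing batch (-0.4, adjusted p = 0.0613). The interaction of genotype and fasting on HFD was lost without LKO_HFD_FASTED replicate 1 or 3 or LWT_HFD_FASTED replicate 2 or 3 (0.35 to 0.4, adjusted p from 0.0501 to 0.0588). It was also lost with processed signals, no filter, no array weights or only the groups compared (0.38 to 0.43, adjusted p from 0.0562 to 0.0823). The interaction of diet and fasting in hep-/- mice held without each of the 48 arrays in turn. All 3 interaction calls were lost within each washing batch. Over the 16 alternatives, the genotype by diet value lay between -0.51 and -0.32. The genotype by fasting value lay between 0.23 and 0.62, and the diet by fasting value between 0.29 and 0.58. In the order of means, from 9.19 ± 0.15 in fed hep+/+ mice on HFD to 8.52 ± 0.12 in fasted hep-/- mice on CTRL diet, only 1 of 7 neighbouring pairs differed by more than both SDs. The probe lies at chr11:40562427-40562486 (minus strand, mm9).

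Mdm2 encodes the ubiquitin ligase that marks p53 for degradation and is itself induced by p53. It varied little, with group means from 11.23 ± 0.08 to 11.54 ± 0.1 (SD, n = 6), the lowest in fasted hep+/+ mice on CTRL diet and the highest in fasted hep-/- mice on HFD. HFD raised it 1.12-fold in fed hep+/+ mice (log2 0.17, SE 0.05, adjusted p = 0.0103), with no overlap, as for 9.51% of genes, and 1.16-fold in fasted hep-/- mice (0.21, SE 0.05, adjusted p = 0.00593). The fed hep-/- difference was 0.02 (95% interval -0.09 to 0.13, adjusted p = 0.885) and the fasted hep+/+ difference 0.13 (adjusted p = 0.0546). With each array scaled to its median instead of quantile normalization, both HFD calls were lost (0.11, adjusted p = 0.134, and 0.12, adjusted p = 0.173). The fed hep+/+ call was also lost with no correction of the washing batch (adjusted p = 0.0558) and within each washing batch. The fasted hep-/- call was lost with only the groups compared (adjusted p = 0.0563) and within washing batch 1 (0.13, adjusted p = 0.593). In fasted mice on HFD, Mdm2 was 1.13-fold higher in hep-/- mice (0.18, SE 0.05, adjusted p = 0.00547), and fasting raised it in hep-/- mice on HFD by 0.18 (SE 0.05, adjusted p = 0.0133). This fasting call was lost without LKO_HFD_FASTED replicate 3 (0.15, adjusted p = 0.0518) and without LKO_HFD_FED replicate 5 (0.14, adjusted p = 0.065), and with only the groups compared (adjusted p = 0.0823). The interaction of genotype and fasting on HFD was 0.24 (95% interval 0.1 to 0.39, adjusted p = 0.0511) and passed without any of 12 arrays. The brightest probe lies at chr10:117126010-117126069 (minus strand, mm9), and the second, annotated from 117139375 to 117142253 across 2879 bases, shared the sign in all 4 comparisons that either called and passed in 2, both in fasted hep-/- mice on HFD (fasting 0.32, genotype 0.19).

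Perp encodes a membrane protein of desmosomes that p53 induces in apoptosis. It was lower in hep-/- mice in all 4 settings, the only member called in every genotype comparison, as were 6.96% of all genes. On CTRL diet, fed hep+/+ mice had 13.53 to 13.78 (median 13.68) and fed hep-/- mice 13.07 to 13.3 (median 13.2), and fasted mice had 13.65 to 13.91 (median 13.82) and 13.3 to 13.55 (median 13.36). On HFD, fed mice had 13.84 to 13.97 (median 13.93) and 13.21 to 13.67 (median 13.42), and fasted mice 13.74 to 13.87 (median 13.82) and 13.07 to 13.36 (median 13.23). The genotypes overlapped in none of these 4 settings, which held in each for between 6.21% and 14% of genes. The log2 differences were -0.48 (SE 0.05, 1.39-fold, adjusted p = 9.22e-09) in fed and -0.42 (SE 0.05, 1.34-fold, adjusted p = 5.85e-08) in fasted mice on CTRL diet. On HFD they were -0.46 (SE 0.05, 1.37-fold, adjusted p = 7.99e-09) in fed and -0.59 (SE 0.06, 1.51-fold, adjusted p = 3.76e-11) in fasted mice. Of the 5 cholangiocyte markers, 3 were also lower in fed hep-/- mice on CTRL diet and 4 in each of the other 3 comparisons. These counts include Epcam and, outside fed mice on CTRL diet, Krt7, both near background on many arrays.

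HFD raised Perp in fed mice of both genotypes, by 0.24 (SE 0.05, adjusted p = 0.000621) in hep+/+ and 0.26 (SE 0.06, adjusted p = 0.00124) in hep-/- mice. In fasted mice the differences were 0.02 (adjusted p = 0.833) and -0.16 (adjusted p = 0.0652). In hep-/- mice fasting raised Perp on CTRL diet (0.17, SE 0.05, adjusted p = 0.0109) and lowered it on HFD (-0.25, SE 0.06, adjusted p = 0.0013), and this difference of the fasting effect between diets was called (-0.42, SE 0.08, adjusted p = 0.000453). For hep+/+ mice the same difference was -0.22 (95% interval -0.36 to -0.07, adjusted p = 0.105). The values depend on the scaling: with median scaling the hep-/- fasting difference on CTRL diet was 0.31 (adjusted p = 6.97e-05). The hep+/+ difference on HFD was then 0.07 in fed mice (adjusted p = 0.375) and -0.18 in fasted mice (adjusted p = 0.0235), the reverse of its sign above. Within washing batch 2 the fed hep+/+ difference was 0.15 (adjusted p = 0.296). In all, 4 of 7 neighbouring pairs in the order of means differed by more than both SDs, among them fed hep+/+ mice on CTRL diet (13.67 ± 0.1), the lowest hep+/+ group, and fed hep-/- mice on HFD (13.43 ± 0.16), the highest hep-/- group. The probe lies at chr10:18576697-18576756 (plus strand, mm9).

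Bbc3 encodes PUMA, a BH3-only protein through which p53 starts mitochondrial apoptosis. It was lower in hep-/- mice in 3 of 4 settings, most in fasted mice on HFD. There, hep+/+ mice had 9.36 to 10.1 (median 9.81) and hep-/- mice 8.58 to 9.19 (median 8.8), with no overlap, as for 14% of genes. The difference was 1.85-fold (log2 -0.89, SE 0.21, adjusted p = 0.00093). In fasted mice on CTRL diet, hep+/+ mice had 9.29 to 9.82 (median 9.48), and 4 of the 6 hep-/- arrays lay between 8.76 and 8.79 while replicates 5 and 6 had 9.59 and 9.75. That difference was -0.55 (SE 0.2, adjusted p = 0.0378), and it was lost without any of 8 arrays, replicates 1 to 4 of both groups (-0.57 to -0.46, adjusted p from 0.0513 to 0.128), and with the replicate number as a block (-0.51, adjusted p = 0.0556). It was also lost with no filter on dim probes (-0.49, adjusted p = 0.119), no correction of the washing batch (-0.51, adjusted p = 0.0633) or no array weights (-0.44, adjusted p = 0.149), and within each washing batch (-0.67 and -0.49, adjusted p = 0.067 and 0.242).

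In fed mice on HFD the genotype difference of Bbc3 was -0.56 (SE 0.2, adjusted p = 0.0326), between 9.65 to 10.22 (median 9.8) in hep+/+ and 8.66 to 9.99 (median 9.31) in hep-/- mice. It was lost without LKO_HFD_FED replicate 1, 2 or 6 or LWT_HFD_FED replicate 4 or 5 (adjusted p from 0.0504 to 0.231), and came to -0.35 without LKO_HFD_FED replicate 2. It was lost with no filter on dim probes as well (-0.54, adjusted p = 0.068), and within the washing batches it was -0.15 (adjusted p = 0.731) and -0.85 (adjusted p = 0.0451). In fed mice on CTRL diet it was 0.15 (95% interval -0.26 to 0.56, adjusted p = 0.655). Fasting lowered Bbc3 1.78-fold in hep-/- mice on CTRL diet (log2 -0.84, SE 0.2, adjusted p = 0.0011), from 9.02 to 10.26 (median 9.84) in fed to 8.76 to 9.75 (median 8.78) in fasted mice. The other 3 fasting values were -0.14, -0.1 and -0.43 (adjusted p = 0.647, 0.749 and 0.155). None of the 7 neighbouring pairs in the order of group means, from 9.84 ± 0.21 in fed hep+/+ mice on HFD to 8.85 ± 0.26 in fasted hep-/- mice on HFD, differed by more than both SDs. The probe lies at chr7:16903403-16903462 (plus strand, mm9).

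Gadd45a and Gadd45b encode small stress-induced proteins that bind PCNA, p21 and the kinase MAP3K4. They moved in opposite directions on fasting. Gadd45a fell in both genotypes on CTRL diet, and Gadd45b rose in all 4 settings, the only member called in every fasting comparison, as were 9.26% of all genes.

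On CTRL diet, Gadd45a was 7.19 to 9.25 (median 8.36) in fed and 6.6 to 7 (median 6.86) in fasted hep+/+ mice. Among hep-/- mice it was 7.15 to 9.35 (median 7.51) in fed and 6 to 6.93 (median 6.39) in fasted mice. Fed and fasted mice did not overlap in either genotype, as for 11.8% and 15.6% of genes. Gadd45a was 2.97-fold lower in fasted hep+/+ mice (log2 -1.57, SE 0.24, adjusted p = 1.95e-06) and 2.52-fold lower in fasted hep-/- mice (log2 -1.33, SE 0.25, adjusted p = 3.33e-05). On HFD the values were -0.59 (adjusted p = 0.0532) and -0.54 (adjusted p = 0.141), and the first passed without any of 9 arrays (adjusted p from 0.015 to 0.0482). The fasting effect did not differ between diets by the test, with 0.98 in hep+/+ mice (95% interval 0.3 to 1.66, adjusted p = 0.117) and 0.79 in hep-/- mice (0.06 to 1.53, adjusted p = 0.201). HFD lowered Gadd45a 1.8-fold in fed hep+/+ mice (log2 -0.85, SE 0.24, adjusted p = 0.00752), whose levels on HFD were 6.71 to 8.3 (median 7.52) and overlapped those on CTRL diet. This call was lost with only the groups compared (adjusted p = 0.0538). In fed hep-/- mice the value was -0.64 (adjusted p = 0.112). The 4 genotype differences lay between -0.65 and -0.38 and none was called (adjusted p from 0.0581 to 0.261). The value in fed mice on CTRL diet, -0.65, lay between -0.93 and -0.42 without each array in turn. It passed the threshold without any of 4 arrays (-0.93, adjusted p = 0.00167, without LKO_CTRL_FED replicate 1), with normexp (-0.59, adjusted p = 0.0439) and with only probes above background on all arrays (-0.68, adjusted p = 0.0398). The probe lies at chr6:66985376-66985435 (minus strand, mm9), and the other Gadd45a probe was well above background on 1 of 48 arrays.

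Gadd45b was 6.27 to 7.37 (median 6.98) in fed and 7.36 to 9.47 (median 8.7) in fasted hep+/+ mice on CTRL diet. In hep-/- mice on this diet it was 6.79 to 8.31 (median 7.76) in fed and 9.68 to 10.4 (median 9.95) in fasted mice. This 5.74-fold rise (log2 2.52, SE 0.28, adjusted p = 8.29e-10) was without overlap, as for 15.6% of genes. On HFD, fed hep-/- mice had 6.79 to 8.44 (median 7.1) and fasted ones 8.65 to 10.1 (median 9.43). This 4.58-fold rise (log2 2.2, SE 0.3, adjusted p = 4.59e-07) was again without overlap, as for 8.44% of genes. Among hep+/+ mice the rise was 3.41-fold on CTRL diet (log2 1.77, SE 0.27, adjusted p = 1.74e-06), with 1.03 and 2.39 within the washing batches, and 2.18-fold on HFD (log2 1.12, SE 0.26, adjusted p = 0.000929), with 0.63 and 1.61. The fasted hep+/+ mice on HFD had 7.94 to 8.96 (median 8.56), and their fed counterparts 6.8 to 7.96 (median 7.49).

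Fasted hep-/- mice had more Gadd45b than fasted hep+/+ mice. The difference was 2.69-fold on CTRL diet, without overlap (log2 1.43, SE 0.27, adjusted p = 8.32e-05), as for 10.3% of genes, and 1.8-fold on HFD (log2 0.85, SE 0.29, adjusted p = 0.0189). Within the washing batches these were 2.02 and 0.92 on CTRL diet, and 1.37 and 0.29 on HFD. The HFD call was lost without LKO_HFD_FASTED replicate 2 (0.76, adjusted p = 0.0537) or 5 (0.74, adjusted p = 0.0528). In fed mice the genotype values were 0.67 on CTRL diet (adjusted p = 0.08) and -0.23 on HFD (adjusted p = 0.575). The first passed without LKO_CTRL_FED replicate 1 (0.83, adjusted p = 0.0315) or 4 (0.84, adjusted p = 0.0298). The fasting response was not called as different between genotypes, with 0.75 on CTRL diet (95% interval -0.03 to 1.53, adjusted p = 0.295) and 1.07 on HFD (0.27 to 1.88, adjusted p = 0.135). In the ranking, 3 of 7 neighbouring pairs of group means differed by more than both SDs, with fasted hep-/- mice on CTRL diet (10.03 ± 0.28) on top and fed hep+/+ mice on CTRL diet (6.9 ± 0.39) at the bottom. The probe lies at chr10:80394367-80394426 (plus strand, mm9).

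The GADD45 partners form a list of 6 measured genes. Gadd45g, the remaining member of the family, rose on fasting in all 4 settings, by 1.44 in hep+/+ and 2.18 in hep-/- mice on CTRL diet (adjusted p = 0.0169 and 0.000366) and by 1.2 and 2.02 on HFD (adjusted p = 0.044 and 0.0033). It was also higher in fasted hep-/- than in fasted hep+/+ mice on CTRL diet (1.56, adjusted p = 0.0117). Map3k4, the kinase that GADD45 proteins activate, fell on fasting in all 4 settings, from -0.58 to -0.35. Pcna, the sliding clamp of DNA replication, rose on HFD in fed hep+/+ mice (0.56) and was lower in hep-/- than hep+/+ mice in that setting (-0.35). In fed mice on CTRL diet it was higher in hep-/- mice (0.22, adjusted p = 0.027).

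Ccnd1, the cyclin that drives entry into the cell cycle, moved on fasting in the opposite direction to Cdkn1a. It fell in hep+/+ mice on both diets and in hep-/- mice on CTRL diet. On CTRL diet, hep+/+ mice had 9.69 to 10.75 (median 10.33) fed and 8.93 to 9.88 (median 9.28) fasted, and hep-/- mice 10.12 to 11.28 (median 11.21) fed and 9.45 to 10.5 (median 9.89) fasted. On HFD, hep+/+ mice had 9.83 to 11.13 (median 10.61) fed and 9.38 to 10.67 (median 9.88) fasted, and hep-/- mice 9.89 to 11.38 (median 10.53) and 9.06 to 10.85 (median 10.1). Fed and fasted mice overlapped in all 4 settings.

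The fall of Ccnd1 was 2.2-fold in hep+/+ mice (log2 -1.14, SE 0.24, adjusted p = 0.000213) and 2.14-fold in hep-/- mice (log2 -1.1, SE 0.24, adjusted p = 0.000363) on CTRL diet, and 1.76-fold in hep+/+ mice on HFD (log2 -0.82, SE 0.23, adjusted p = 0.00588), a call lost with no array weights (-0.66, adjusted p = 0.0692). In hep-/- mice on HFD the value was -0.52 (adjusted p = 0.151), with 0.19 and -1.44 within the washing batches. Ccnd1 was higher in hep-/- than in hep+/+ mice on CTRL diet, by 0.7 in fasted (SE 0.23, 1.63-fold, adjusted p = 0.0244) and 0.66 in fed mice (SE 0.24, 1.58-fold, adjusted p = 0.0482). The fed call is weak: it was lost without any of 24 arrays (0.57 to 0.71, adjusted p from 0.0502 to 0.146) and with the replicate number as a block (0.64, adjusted p = 0.0624), and it was kept in 7 of 16 alternative settings (0.47 to 0.85). The fasted call was lost without LKO_CTRL_FASTED replicate 4 or LWT_CTRL_FASTED replicate 3 (0.62, adjusted p = 0.0737 and 0.0733), and with no filter on dim probes or no array weights (0.67, adjusted p = 0.0767 and 0.071). On HFD the genotype differences were -0.09 in fed and 0.21 in fasted mice (adjusted p = 0.807 and 0.558). No HFD difference of Ccnd1 was called (0.25, -0.51, 0.57 and 0.07, adjusted p from 0.0945 to 0.905). In the order of group means, from 10.97 ± 0.46 in fed hep-/- mice on CTRL diet to 9.29 ± 0.34 in fasted hep+/+ mice on CTRL diet, only the lowest pair differed by more than both SDs. The probe lies at chr7:152116202-152116261 (minus strand, mm9).

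**Figure D2:**
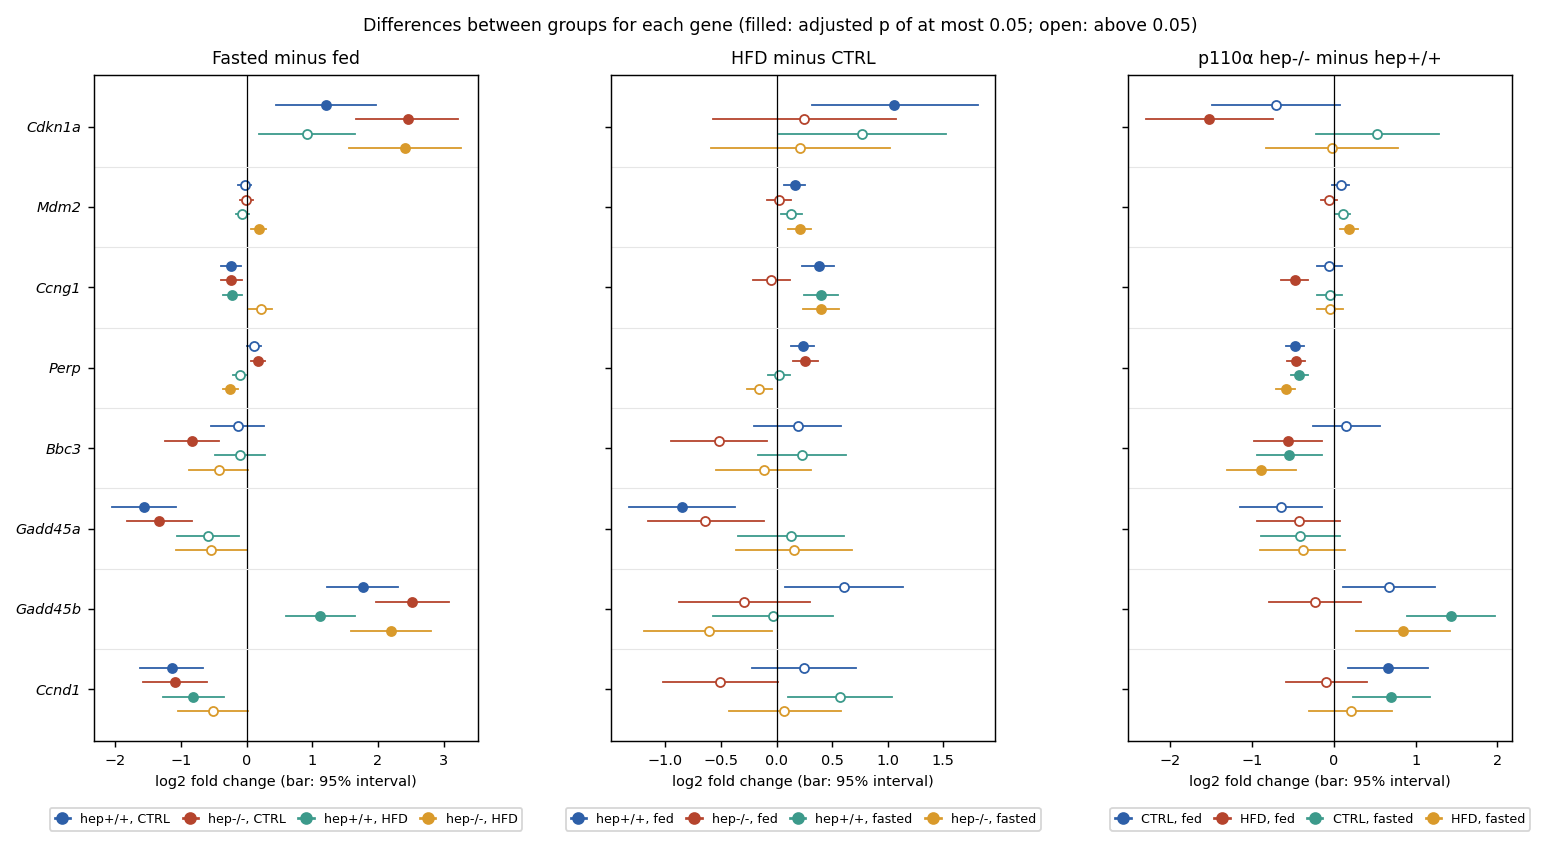
Log2 fold changes of the 8 genes, fasted minus fed, HFD minus CTRL and p110α hep-/- minus hep+/+, each in 4 settings, with bars for the 95% interval and filled points for an adjusted p of at most 0.05. Gadd45b lies above 0 in all 4 fasting comparisons, Perp below 0 in all 4 genotype comparisons, and Ccng1 stands apart from its other genotype values only in fed mice on HFD (-0.48).

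By comparison, fasting changed 5 members in hep+/+ (32.6% of genes) and 7 in hep-/- mice (35.5%) on CTRL diet, and 3 (28.6%) and 4 (28.6%) on HFD. HFD changed 5 members in fed hep+/+ mice, 4 higher and 1 lower, where 24% of genes changed. It changed 1 in fed hep-/- mice (12.3%), 1 in fasted hep+/+ mice (16%) and 2 in fasted hep-/- mice (10.8%). Genotype changed 2 members in fed (21.7%) and 4 in fasted mice (24.9%) on CTRL diet, and 4 in fed (33%) and 4 in fasted mice (36.9%) on HFD. The interactions called were 1 for genotype by diet in fed mice, 1 for genotype by fasting on HFD and 2 for diet by fasting in hep-/- mice, with the shares of genes given above. The other 3 interactions called 0 members by limma, with 1 (genotype by diet in fasted mice, 5.09% of genes called), 2 (genotype by fasting on CTRL diet, 3.97%) and 2 members (diet by fasting in hep+/+ mice, 2.36%) at an unadjusted p under 0.05. Fasting changed 8 of the 8 members in at least 1 setting (60.7% of genes), genotype 7 (59.5%), HFD 5 (41.9%) and the interactions 2 (18.4%). HFD changed 0 members in all 4 settings, where 0.781% of genes passed. In fed mice on HFD all 4 genes that differed between genotypes, Cdkn1a, Ccng1, Perp and Bbc3, were lower in hep-/- mice.

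The wider p53 program was read from a list of 34 other target names, of which 32 were measured. This list, like the others below, was chosen with earlier results of these data known. Its counts beside those of all genes are a description and do not test enrichment. In fed hep+/+ mice, HFD raised 16 of 32 and lowered 0 by limma, with 22 higher and 1 lower at an unadjusted p under 0.05. The list median was 0.22 against -0.01 over all genes, of which 12.4% rose. Ckap2, a spindle protein, rose by 1.43, Psrc1, another spindle protein, by 0.97, Phlda3, an inhibitor of AKT, by 0.93, and Ddit4, an inhibitor of mTORC1, by 0.81. In this comparison 16 of 18 genes of S and G2/M phase rose too, as described below. The part of dividing cells in the rise of the list was not tested. Among fed hep-/- mice, where 5.91% of genes rose, 2 of the list rose (Btg2, an antiproliferative factor, by 0.88, and Sesn2 by 0.29), 1 fell (Tap1, -0.39), and the list median was 0.02, with 7 higher and 1 lower at an unadjusted p under 0.05. In fasted mice, HFD raised 11 in hep+/+ mice, led by Phlda3 (0.92), against 8.99% of genes, and 9 in hep-/- mice, led by Dyrk3 (1.07), against 5.67%, both with a median of 0.13. None was called lower there, with 1 and 2 lower at an unadjusted p under 0.05. In fed mice on HFD, 13 genes of the list were called lower in hep-/- than in hep+/+ mice, against 16.4% of all genes. Only Sesn2 was called higher (0.43), and the list median was -0.19. At an unadjusted p under 0.05, 18 were lower and 3 higher. The largest values of this genotype difference were -1.46 for Ddit4, -1.14 for Ddit4l, -0.99 for Phlda3 and -0.83 for Ckap2. The difference between genotypes in the diet effect itself was called for 3 of the 32 genes, Ckap2 (-0.98), Phlda3 (-0.71) and Ddb2 (-0.32), against 3.03% of all genes, with a median of -0.18.

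**Figure D3:**
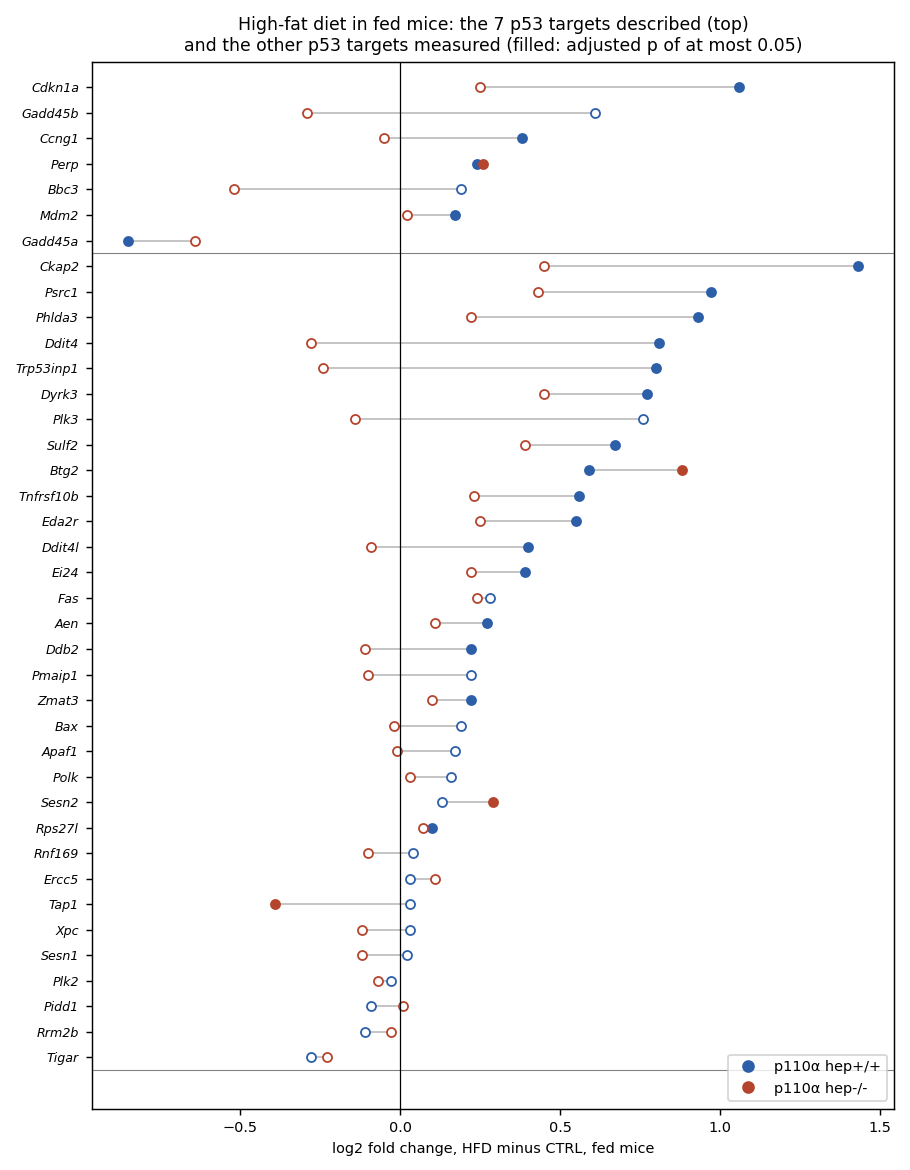
Log2 fold change on HFD in fed mice for the 7 genes grouped here as p53 targets above the line and the 32 other targets below it, blue for p110α hep+/+ and red for hep-/- mice, filled where the adjusted p was at most 0.05. Blue points of 16 of the 32 genes are filled and positive, and red points of 3 are filled.

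Fasting split the same list. It raised 10 and lowered 10 in hep+/+ mice on CTRL diet, led by Trp53inp1 (1.44), which promotes p53-dependent apoptosis and autophagy, and Plk3 (1.34), with Tigar (-0.67) and Ckap2 (-0.63) lower. The counts were 8 and 10 in hep-/- mice on CTRL diet, 5 and 10 in hep+/+ and 6 and 3 in hep-/- mice on HFD. Over all genes 32.6% and 35.5% changed on CTRL diet in hep+/+ and hep-/- mice and 28.6% in each on HFD, so the last count is near the background. The list medians lay between -0.07 and 0.08. Among 17 measured names of p53 and its regulators, Trp53 itself fell on fasting in hep+/+ mice on CTRL diet (-0.26, adjusted p = 0.023), rose on HFD in fasted hep+/+ mice (0.29, adjusted p = 0.0221) and was higher in hep-/- than hep+/+ mice when fasted on CTRL diet (0.3, adjusted p = 0.0122). In fed mice its HFD value was 0 in hep+/+ and 0.08 in hep-/- mice (adjusted p = 0.986 and 0.697). In fed hep+/+ mice, HFD raised 7 of the 17 (12.4% of all genes rose), with Trp63 (0.54), Chek1 (0.47), Cdkn2a (0.35) and Atm (0.21) ahead.

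Genes of S and G2/M phase were set beside Cdkn1a and Ccnd1. Of 18 measured, HFD raised 16 and lowered 1 in fed hep+/+ mice (median 0.86, 24% of all genes changed), among them Mki67 (1.45), Top2a (1.36), Birc5 (1.14) and Ccna2 (1.14), all markers of dividing cells. The gene that fell was Tk1 (-0.61), thymidine kinase. In fed hep-/- mice HFD raised 1, Mki67 (0.49), near the 5.91% of all genes that rose, with 5 higher at an unadjusted p under 0.05. In fasted mice it raised 10 and lowered 1 in hep+/+ mice (16% of all genes changed) and changed 0 in hep-/- mice (10.8%) by limma, where 0 also passed an unadjusted p under 0.05. In fed mice on HFD, 14 of the 18 were lower and 1 higher in hep-/- mice (median -0.68, with 16.4% of all genes lower), and for 5 the diet effect differed between genotypes, as for 3.03% of genes. Fasting lowered 12 and 9 on CTRL diet in hep+/+ and hep-/- mice, and 17 and 15 on HFD (32.6% and 35.5% of all genes changed on CTRL diet in either direction, and 28.6% in each genotype on HFD), with Rrm2, a ribonucleotide reductase subunit, at -2.01 in hep+/+ mice on CTRL diet. In fed hep+/+ mice on HFD, the inhibitor gene Cdkn1a and 16 S and G2/M genes were both higher than on CTRL diet, while Ccnd1 was not called (0.25, adjusted p = 0.484). Neutrophil markers S100a8 and S100a9 (2 of 5 on their list), stellate cell markers Dcn and Colec11 (2 of 5), the endothelial marker Stab2 (1 of 6) and the cholangiocyte marker Spp1 (1 of 5) were also higher in that comparison, and the T cell marker Cd3e (1 of 4 T and B cell markers) was lower. In fasted hep+/+ mice, 3 of 5 neutrophil markers, Dcn, Spp1, the macrophage marker Cd68 and the hepatocyte markers Ttr and Hpx were higher on HFD, and the endothelial markers Clec4g and Kdr lower. Their part in these differences was not tested.

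Among 19 measured of 21 listed D cyclins, CDK inhibitors and RB pathway genes, fasting lowered between 6 and 8 and raised between 2 and 4, against 28.6% to 35.5% of all genes changed in these comparisons. In hep+/+ mice on CTRL diet, E2f2, an S phase transcription factor, fell by 2.03 on the log2 scale, and Ccne1, cyclin E1, fell by 0.7. E2f8, a repressor of the E2F family, rose by 0.99 there (adjusted p = 0.00413) and in the other 3 settings, by 0.84 to 1.76. Ccnd2, cyclin D2, fell on fasting in all 4 settings, between -0.55 and -0.33. Ccnd3, cyclin D3, was higher in hep-/- mice in all 4 settings, by 0.26 (fed) and 0.49 (fasted) on CTRL diet and 0.37 (fed) and 0.26 (fasted) on HFD. Of the list, 4 were higher and 1 lower in fed (21.7% of all genes differed) and 1 and 1 in fasted hep-/- mice (24.9%) on CTRL diet. On HFD the counts were 3 and 4 in fed (33%) and 3 and 3 in fasted mice (36.9%), near the background. E2f1 (-0.74), Cdk6 (-0.45) and Cdkn1c (-0.39) were among those lower in fed hep-/- mice on HFD. In fed hep+/+ mice, HFD raised 6 and lowered 1 of the list, where 24% of all genes changed, with E2f1 (0.66) and Rbl1 (0.6) ahead.

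**Figure D4:**
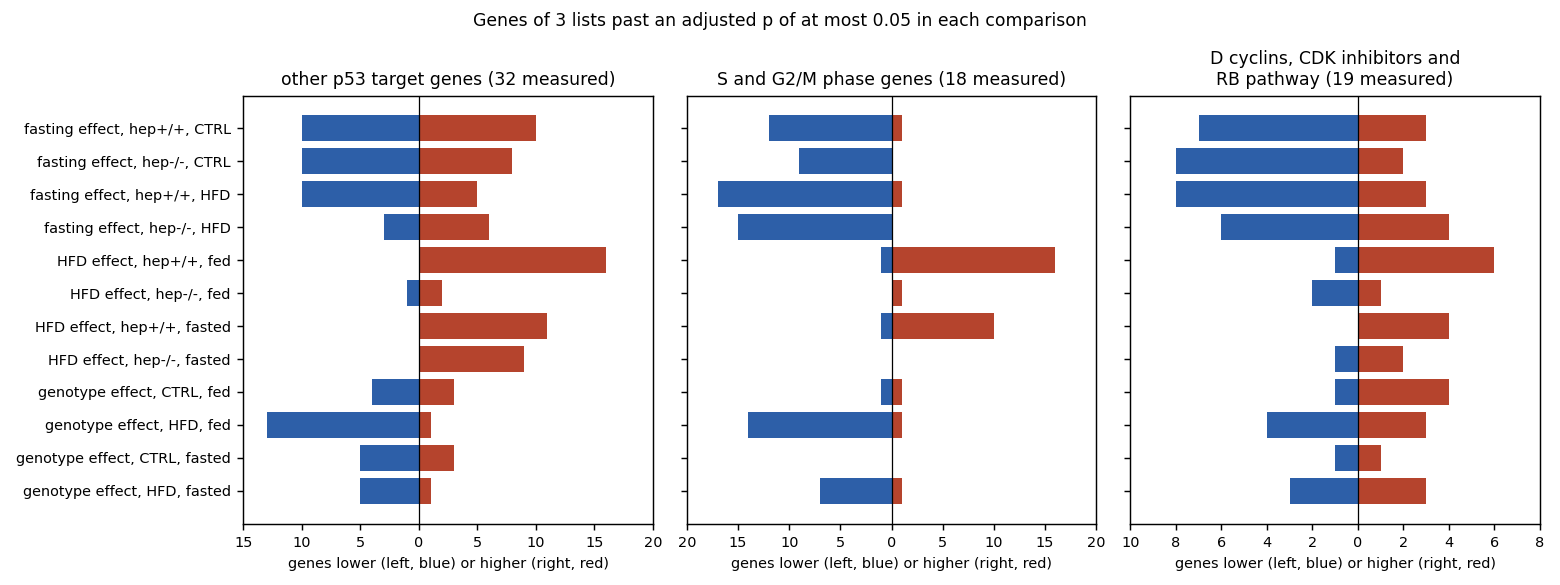
Number of genes called higher (red, right) or lower (blue, left) at an adjusted p of at most 0.05 in each of 12 comparisons, for other p53 targets (32 measured), S and G2/M genes (18) and D cyclins, CDK inhibitors and RB pathway genes (19). The bars for HFD in fed p110α hep+/+ mice reach 16, 16 and 6 genes higher, against 2, 1 and 1 in fed hep-/- mice.

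The genes most like each member over the 48 arrays were ranked by Pearson r among 20458 genes, as a description of points that share groups and arrays. Ccng1 was followed by the transcript BB189136 (r = 0.83) and by Zmat3 (0.82) and Phlda3 (0.8), both on the list of other p53 targets. Zmat3, which encodes an RNA-binding zinc finger protein, rose on HFD in fed (0.22, adjusted p = 0.0316) and fasted hep+/+ mice (0.27, adjusted p = 0.0123) and in fasted hep-/- mice (0.34, adjusted p = 0.004), with 0.1 (adjusted p = 0.495) in fed hep-/- mice. Cdkn1a was followed by 2810408A11Rik (0.86), Dcun1d3 (0.86) and Plin5 (0.83), a lipid droplet protein. For Perp, 212 genes had r over 0.8, led by Clstn3 (0.94), 4931406C07Rik (0.93) and Rmdn3 (0.92), and for Gadd45b 111 genes, with an unnamed transcript of chromosome 6 (0.91), Fam134b (0.89) and 1010001N08Rik (0.89) first. Gadd45a was followed by E130101M22 (0.86), Traf5 (0.86) and Gm6484 (0.84). The highest values were lower for Ccnd1 (Rnf145 0.8, Myh9 0.77, Dgkz 0.77), Bbc3 (Snx24 0.74, Bet1 0.73, Pml 0.72) and Mdm2 (Dusp3 0.7, Rassf1 0.68, Ramp3 0.67). Among the members, r was 0.66 between Cdkn1a and Gadd45b, -0.61 between Cdkn1a and Gadd45a and -0.66 between Gadd45a and Gadd45b. For deviations from the group means these were 0.44, -0.44 and -0.05.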

How the data were processed

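Liver RNA of 48 male mice was hybridised to one-colour Agilent arrays (62976 spots, 59305 of them not controls). The scanner files hold the authors' signal intensity per spot from Agilent Feature Extraction 10.10.1.1, with other columns deposited as flags for outlier spots and spots well above background. The log2 table of normalized values deposited by the authors (32437 probes, 30762 of them among the probes kept here) was used as an alternative. It had the same median in every column, and its filter is not given in the sources used here.

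The study's methods give filtered log2 median signals, a correction for the washing batch, quantile normalization and limma with array weights. Averaging over the spots of a probe, leaving out 92 to 151 outlier spots per array, and keeping probes well above background on at least 5 of 6 arrays of 1 group (30793 of 56605) were choices made here. Values were corrected for the washing batch (2 batches of 3 slides, with 1 array per group on each of 6 slides of 8 arrays), quantile normalized and fitted to 8 group means with array weights (0.35 to 1.71) by lmFit and eBayes in limma 3.58.1 (statmod 1.5.0, R 4.3.3). Group means were protected in the batch correction. Benjamini-Hochberg adjustment ran over all kept probes, and the threshold was an adjusted p of 0.05 on the brightest probe of a gene. Precision is limited by how many arrays each group has. The script was tested on simulated data.

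The members and gene lists were chosen with earlier results of these data known. From each list, at most the 4 genes with the largest change among those called were to be named in a comparison, and for each member the 3 genes with the highest Pearson r. Trp53, Tk1, Sesn2, Zmat3, Ccnd2 and Ccnd3, where outside this rule, were named after their values had been seen. Replicate numbers did not pair the samples (mean correlation of deviations from group means 0.02 for arrays of the same number and 0 for others), nor did slides (consensus correlation 0.01).

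Alternatives were processed signals scaled to the 75th percentile, normexp with offset 50, median scaling, no filter or a filter over all arrays, other handling of the washing batch, a block for slide or replicate number, a fit without array weights, only the groups compared, a mean over probes, a fold change over 1.5, and leaving out each array. Fits within washing batches and without 2 arrays that lay nearest to another group were added after seeing the data. Probe positions are mm9 from the array annotation, and promoter windows are RefSeq sequences of GRCm38.p6, which were not joined to them.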

Additional observations from a re-analysis of the deposited data

Results flagged for a closer look

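Ccng1 had 1 array apart from its group: among fed hep-/- mice on CTRL diet, replicate 2 had a level of 8.47, with the next array at 8.77 and the highest at 8.91. The gap to the next array was 0.682 of the group's range, above Dixon's 95% limit for 6 arrays. Of 64 sets of a member and a group, 1 was marked in this way, and chance marks about 1 in 20 such sets.

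In all, 3 effects on Ccng1 differed between groups by an interaction test, as described above: the HFD effect in fed mice differed between genotypes (-0.42), the fasting effect on HFD differed between genotypes (0.43), and the fasting effect in hep-/- mice differed between diets (0.45). All 3 tests use the fed hep-/- mice on HFD, so they are not separate evidence. For Perp, the fasting effect in hep-/- mice differed between diets (-0.42), being 0.17 on CTRL diet and -0.25 on HFD.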

How the results depend on the processing

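No call of the 46 changed its direction in the 16 alternatives other than single left-out arrays and the fold threshold. The calls kept were 46 with slide as a random block, with only probes above background on all arrays and with the mean over probes, 45 with normexp, the washing batch as a term, the deposited log2 values and without the 2 arrays nearest to another group, 44 with processed signals, 42 with median scaling and with no correction of the washing batch, 41 with only the groups compared, and 38 with no filter on dim probes or no array weights. With the replicate number as a block, 43 were kept, with counts of 20 (fasting), 8 (HFD), 12 (genotype) and 4 (interactions), against 19, 9, 14 and 4. Within washing batches 1 and 2, with 3 arrays a group, 23 and 24 were kept. The fasting count was 10 and 14, the HFD count 5 and 3, the genotype count 8 and 9, and the interaction count 1 and 0 in batches 1 and 2. A fold change over 1.5 as well left 2 HFD, 7 genotype and 0 interaction calls. Interactions came to 2 with no filter and 2 with no array weights; the cause was not tested. The HFD value of Perp in fasted hep+/+ mice, 0.02, was -0.18 with median scaling (adjusted p = 0.0235). Without each array in turn the counts ranged from 18 to 22 (fasting), 8 to 11 (HFD), 12 to 15 (genotype) and 3 to 5 (interactions), and 12 of the 46 calls were lost without at least 1 array. The second Cdkn1a probe, above background on 33 of 48 arrays, is limited by its dim signal.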

Other observations

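FOXO targets, which insulin holds down through PI3K, were 12 measured genes. Fasting raised 8 and lowered 2 in hep+/+ mice on CTRL diet (32.6% of all genes changed), with Igfbp1 at 3.4, Pck1, the rate-limiting enzyme of gluconeogenesis, at 2.18 and Irs2 at 1.94. It raised 8 and lowered 2 in hep-/- mice on CTRL diet (35.5%). On HFD the counts were 5 and 3 in hep+/+ and 6 and 3 in hep-/- mice (28.6% in each). In fed mice on CTRL diet, 4 were higher in hep-/- than in hep+/+ mice (21.7% of all genes differed), Igfbp1 by 3.28, Irs2 by 1.93, Pck1 by 1.44 and Sesn3 by 0.3. The Cdkn1a difference in that comparison was -0.71 (adjusted p = 0.206) and the Gadd45b difference 0.67 (adjusted p = 0.08). In fasted mice on CTRL diet, 4 FOXO targets were higher and 3 lower in hep-/- mice (24.9% of all genes differed). On HFD, 3 were higher and 0 lower by limma in fed mice (33%), where Cdkn1a was lower (-1.52), and 6 and 0 in fasted mice (36.9%). In fed hep+/+ mice, HFD raised 4 and lowered 0 by limma (24% of all genes changed), and Cdkn1a rose (1.06), a call lost in several alternatives above.

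Of 12 other BCL2 family genes listed beside Bbc3, BH3-only genes among them, 11 were measured. Fasting raised 4 and lowered 0 in hep+/+ and raised 1 and lowered 4 in hep-/- mice on CTRL diet, and raised 4 and lowered 1 and raised 6 and lowered 0 on HFD. Over all genes 32.6% and 35.5% changed on CTRL diet and 28.6% in each genotype on HFD, so the first count is near the background. On fasting, Bmf, a BH3-only protein like PUMA, rose by 0.8 in hep+/+ mice on CTRL diet and by 1.24 in hep-/- mice on HFD, and Bcl2l11, which encodes BIM, rose by 0.47 and 0.98 there, while the Bbc3 values in the same comparisons were -0.14 (adjusted p = 0.647) and -0.43 (adjusted p = 0.155). In hep-/- mice on CTRL diet, where Bbc3 fell (-0.84), Hrk (-0.51), Bcl2l1 (-0.24) and Bad (-0.19) fell too and Bcl2l11 rose (0.69). In fasted mice on HFD, 2 of the 11 were higher and 2 lower in hep-/- mice, near the 36.9% of all genes that differed. Bcl2l11 was 0.6 higher in hep-/- mice (adjusted p = 0.00138), Mcl1 was 0.33 higher, and Bak1 (-0.29) and Bid (-0.27) were lower, where Bbc3 was 1.85-fold lower (log2 -0.89, adjusted p = 0.00093).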
